A study of Drosophila melanogaster with 2 samples.

Results

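The 10 genes described here encode the intracellular part of the Wnt (Wingless) pathway of Drosophila melanogaster: Axn, Apc and sgg of the destruction complex, arm, pan, lgs and pygo as transcriptional effectors, gro as corepressor, and dsh with nkd at the Dishevelled step. They were chosen by name from 13968 protein-coding genes on 7 chromosome arms, and all 10 were found in the annotation. Binding of Sox102F, a SoxD-family protein with an HMG box, was located by chromatin immunoprecipitation and sequencing (ChIP-seq). The labels describe an anti-GFP antibody, while their antibody field names Sox102F. The material was 2 biological replicates, numbered 2 and 3, of 1 group of whole embryos aged 12 to 14 h. They came from a stable transgenic line in which GFP is fused to the C-terminus of Sox102F. The age is that of the source name, while the age field of the labels gives a different value. The labels name the strain Sox102F-GFP and describe an insertion targeting Sox102F of D. melanogaster. The sources used here do not say which regulatory sequence drives the tagged gene or whether untagged Sox102F was also present. The control used for peak calling was not analysed here.

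The authors deposited 4 peak lists on dm6. Each replicate list and the pooled list held 30000 peaks, and the optimal list held 7488, which were the pooled peaks of highest signal value, so ranks given for pooled peaks hold in both. The authors' signal value is a score of each peak with no depth scaling stated, and it ranks peaks only within a list. The depth of the libraries is unknown, since the lists carry no counts of reads. With 1 condition there was no contrast between groups and no test was made, and every value below is a description. In whole embryos, binding in more cells and stronger binding in fewer cells cannot be told apart.

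Without a Wnt signal, the scaffold proteins Axin (Axn) and APC (Apc) hold Armadillo, the fly beta-catenin (arm), next to the kinase Shaggy (sgg, the fly GSK3), which marks it for degradation. A Wnt signal acts through Dishevelled (dsh) to stop this, and Armadillo then enters the nucleus and joins the TCF protein Pangolin (pan), with Legless (lgs) and Pygopus (pygo) as coactivators. Without Armadillo, Groucho (gro) binds Pangolin and represses the same targets, and Naked cuticle (nkd) is a Wnt-induced inhibitor that binds Dishevelled. Sox and TCF proteins both bind DNA through an HMG box.

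The sequences at the summits that carry the results are printed first, 5′ to 3′ on the strand of the named gene, each 101 bases centred on the summit, from the RefSeq sequence of dm6. Capitals mark any match, on either strand, to 8 words: the Sox core ACAAT and its extension AACAAT, the word TAACA (the Sox core read backwards, with the same base composition), ACAAAG as a word of both Sox and TCF proteins, the TCF word CTTTGA, the TCF helper word GCCGCC, the DRE word TATCGATA and the homeodomain word TAATTA. The word AACAAT always holds ACAAT. Shown for the 4 genes with a promoter summit is the highest promoter peak of each.
gro, chr3R:26042457-26042557, plus strand: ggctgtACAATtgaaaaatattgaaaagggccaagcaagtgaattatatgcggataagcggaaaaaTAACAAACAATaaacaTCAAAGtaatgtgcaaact
sgg, chrX:2646385-2646485, plus strand: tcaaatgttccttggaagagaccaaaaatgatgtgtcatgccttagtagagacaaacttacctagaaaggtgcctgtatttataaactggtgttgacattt
nkd, chr3L:19045572-19045672, minus strand: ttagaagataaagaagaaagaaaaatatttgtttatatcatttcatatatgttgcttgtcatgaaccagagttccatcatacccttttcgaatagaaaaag
Apc, chr3R:28844847-28844947, minus strand: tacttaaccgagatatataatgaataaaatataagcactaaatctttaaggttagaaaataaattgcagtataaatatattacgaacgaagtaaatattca

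The other 4 genes with a summit in reach had it only in the flanks, and the highest flank peak of each is shown because no nearer summit was in the optimal list.
pygo flank, chr3R:31588482-31588582, minus strand: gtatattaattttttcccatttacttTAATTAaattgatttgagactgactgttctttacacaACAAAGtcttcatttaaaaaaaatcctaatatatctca
lgs flank, chr4:424773-424873, minus strand: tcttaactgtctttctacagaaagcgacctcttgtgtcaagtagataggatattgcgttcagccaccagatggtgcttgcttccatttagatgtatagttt
dsh flank, chrX:11351489-11351589, plus strand: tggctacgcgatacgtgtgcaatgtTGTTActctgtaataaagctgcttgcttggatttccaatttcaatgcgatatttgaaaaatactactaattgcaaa
Axn flank, chr3R:30046263-30046363, plus strand: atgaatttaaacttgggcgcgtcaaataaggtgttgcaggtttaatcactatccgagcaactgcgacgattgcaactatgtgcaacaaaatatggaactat

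Counting promoters and gene bodies, the 10 genes fell into 4 with summits of Sox102F-GFP in every list and 6 with none in any list. In the optimal list gro, sgg, nkd and Apc had a summit within 500 bp of a transcription start site (TSS), or 4 of 10 members, against 16.9% of all protein-coding genes. The same 4 genes were the ones with a promoter summit in the pooled list (29.5% of all genes), in replicate 2 (28.6%) and in replicate 3 (37.0%). In the gene body, 3 of 10 members held an optimal summit (sgg, gro and nkd), against 14.3% of all genes. Apc joined them as the 4th in the pooled list (23.7% of all genes), in replicate 2 (25.2%) and in replicate 3 (27.4%).

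For Axn, dsh, arm, pan, lgs and pygo, no list held a summit in the gene body or within 500 bp of a TSS, down to the weakest of the 30000 peaks. No list with such a summit was found for 50.4% of all genes, so the 6 of 10 are near the share of the genome when gene length is left aside. All 4 lists held one for 22.2% of all genes, against the 4 of 10 here. Between these lie the genes found in 1 to 3 lists, which made up 27.4% of all genes and 0 of the 10. Longer genes less often lacked a summit in every list. Among genes of similar length (within 2-fold), the share in no list was 4.52% for pan, 22.0% for Axn and 29.7% for arm. It was 36.4% for lgs, 43.8% for pygo and 52.3% for dsh, and it ran from 4.79% (sgg) to 32.6% (gro) for the other 4 members. The lists are not independent, since the optimal list is part of the pooled list and that was made from the reads of both replicates.

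Genes with several TSSs more often had a promoter summit in the genome as a whole. Of the 6 members with 2 or more TSSs, 3 had an optimal promoter summit, against 30.1% of all such genes, and of the 4 members with 1 TSS, nkd alone had one, against 12.2%. Within 20 kb of the gene, 8 of 10 members had an optimal summit, against 83.2% of all genes, so this count is near the share of the genome. With the longer lists the count was 8 in the pooled list and in replicate 2 and 10 in replicate 3, against 93.4%, 94.3% and 95.4% of all genes.

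**Figure D1:**
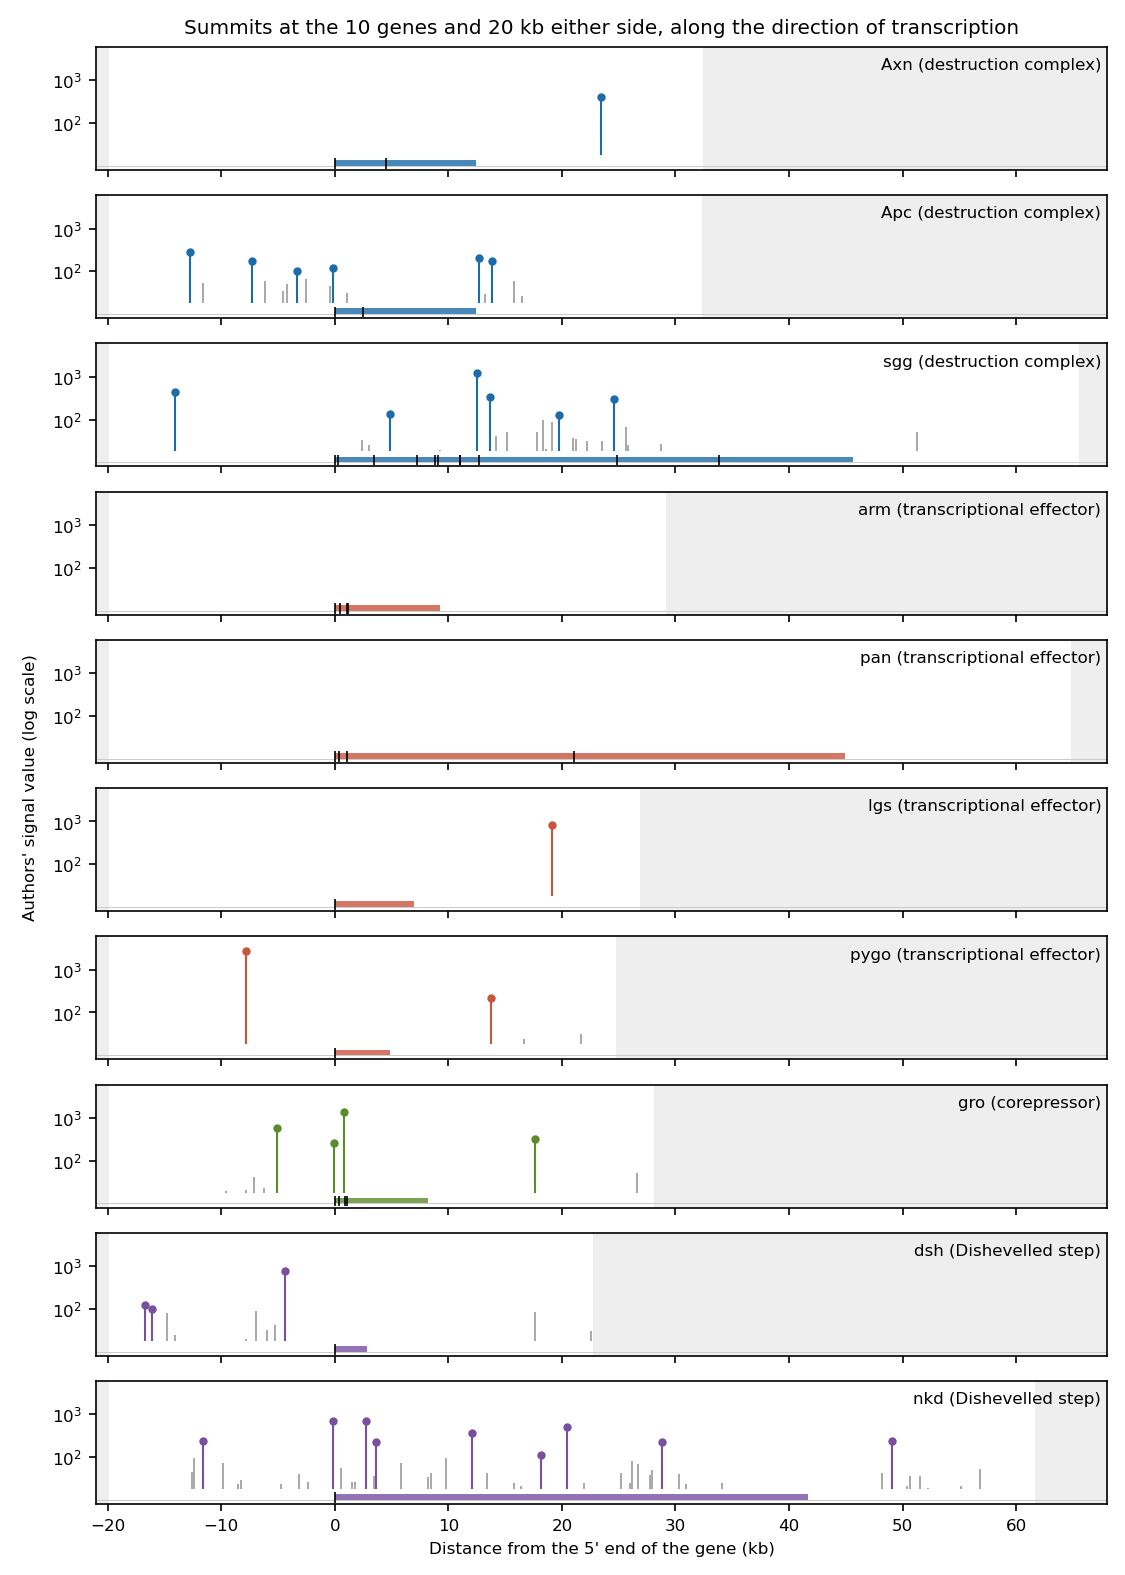
Each panel shows 1 gene, with the distance from its 5′ end in kb along the direction of transcription on the x axis and the authors' signal value (log scale) on the y axis. Coloured stems with a dot are optimal summits, grey stems are pooled summits below the optimal list, the bar under them is the gene (placed for display only), black ticks are its TSSs and grey areas lie beyond 20 kb. The bodies of sgg and nkd hold 5 and 6 optimal summits, and those of arm, pan, lgs and pygo hold none.

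By role, optimal promoter summits were found at 2 of 3 destruction complex genes (Apc and sgg), 0 of 4 effectors, the corepressor gene and 1 of 2 genes of the Dishevelled step (nkd), against 16.9% of all genes. With 4 genes, the 0 of the effectors is near that share. The 3 destruction complex genes span 70.5 kb with 5 optimal summits in their bodies, or 0.71 per 10 kb, all in sgg. The 2 genes of the Dishevelled step span 44.6 kb with 6, or 1.35 per 10 kb, all in nkd. The 4 effector genes span 66.0 kb with 0 summits in any list. Of that length, pan (44.9 kb) and lgs (6.96 kb) lie on chromosome 4, where the optimal list held 0.0451 peaks per 10 kb and 85.0% of genes had no promoter or body summit in any list. Over the 7 arms the optimal list held 0.55 peaks per 10 kb and the pooled list 2.19. The role and the chromosome cannot be told apart for these 2 genes. With 3, 4, 1 and 2 genes, these differences between roles were not tested.

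Groucho is a corepressor for many DNA-binding proteins besides Pangolin. Its gene (FBgn0001139, chr3R:26041736-26049911, plus strand, 8.18 kb) had the highest promoter signal of the 10, on a peak at chr3R:26042323-26042696 with its summit at 26042507. The signal value there was 1395 in the pooled list, 518 in replicate 2 and 877 in replicate 3. These were ranks 164, 173 and 161 of their lists. The summit lay in an intron, 134 bp upstream of the internal TSS at 26042641, and 5.88% of the 2362 promoter-bound genes had a higher promoter signal.

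A second gro peak had its summit at 26041641, 95 bp upstream of the 5′ end of the gene and 866 bp from the first. It was much lower, with signal values of 264 pooled, 80.3 in replicate 2 and 184 in replicate 3, at ranks 2781, 3675 and 2515. Between them the 2 summits lay within 500 bp of all 4 TSSs of gro. No further summit lay in the body in any list, and 27.7% of the 2862 genes of similar length (within 2-fold of that of gro) held at least 1 optimal summit in the body.

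Within 50 bp, the TCF word CTTTGA lay at 2 of the 15 promoter and body summits, against 7.02% of all optimal summits. Both were summits of gro. Within 100 bp it lay at 3 summits of 2 genes, against 12.9%. The highest gro peak carried ACAAT near the 5′ end of the printed stretch, then TAACA directly followed by AACAAT, and TCAAAG, which is CTTTGA on the other strand, all printed above. The 5′ gro summit held TAACA and CTTTGA within 50 bp. In the 20 kb flanks were an optimal summit 415 bp upstream of the TSS of E(spl)m7-HLH, a repressor gene of the neighbouring Enhancer of split complex (signal value 582), and one 104 bp upstream of RpL34a, which encodes a ribosomal protein (314). A TSS of Trmt61 also lay within 500 bp of the latter summit.

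Shaggy is a kinase of the destruction complex. Its gene (FBgn0003371, chrX:2633952-2679553, plus strand, 45.6 kb) has 11 TSSs, and optimal summits lay at 2 internal ones and not at the 5′ end. The highest, on the peak at chrX:2646133-2646638, had its summit at 2646435, in an intron and 202 bp upstream of the TSS at 2646637. Its signal value was 1210 in the pooled list, 490 in replicate 2 and 723 in replicate 3, at ranks 234, 196 and 252, and 8.09% of promoter-bound genes had a higher one. None of the 8 words lay within 50 bp of this summit.

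The other promoter summit of sgg, at 2658564, lay 202 bp upstream of the TSS at 2658766. Its values were 308 pooled, 104 in replicate 2 and 201 in replicate 3, and it carried AACAAT. Another 3 optimal summits lay in introns, at 956 bp downstream of a TSS (329), 1388 bp downstream (136) and 5067 bp upstream (128). The 5 body summits, or 1.10 per 10 kb, compare with a median of 2 in the 794 genes of similar length, of which 23.0% held 5 or more. In the longer lists the body of sgg held 21 pooled summits, 18 in replicate 2 and 25 in replicate 3, against a pooled median of 10 in genes of similar length.

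Naked cuticle is the feedback inhibitor of the pathway. Its gene (FBgn0002945, chr3L:19003741-19045449, minus strand, 41.7 kb) had the most summits of the 10, with 1 at the promoter and 6 in introns. The promoter peak at chr3L:19045469-19045829 had its summit at 19045622, 173 bp upstream of the single TSS. Its signal value was 703 in the pooled list, 301 in replicate 2 and 404 in replicate 3, at ranks 677, 558 and 787. Among promoter-bound genes 20.5% had a higher promoter signal.

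The highest intronic summit of nkd, 2772 bp downstream of the TSS, was as high as its promoter, with 715 pooled, 268 in replicate 2 and 448 in replicate 3. The other 5 intronic summits lay 3639 to 28796 bp downstream of the TSS, with pooled signal values from 111 to 517. One of them, at 12085 bp (375), also lay inside the long non-coding RNA gene lncRNA:CR45940. The farthest one was nearer to the TSS of SmydA-2, 13401 bp away, than to that of nkd. At 1.44 optimal summits per 10 kb of gene body, nkd held more than sgg, and 15.9% of the 859 genes of similar length held 6 or more. The pooled list held 27 summits in the body of nkd, 29 were listed in replicate 2 and 30 in replicate 3. The pooled median in genes of similar length was 9, and 7.68% of them held 27 or more. The highest optimal flank summit of nkd lay 7383 bp beyond its 3′ end, with the TSS of CG18135 nearest (signal value 245).

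APC is a scaffold of the destruction complex. Its gene (FBgn0015589, chr3R:28832301-28844748, minus strand, 12.4 kb) had a weak promoter peak, at chr3R:28844702-28845091, with the summit at 28844897. It lay 149 bp upstream of the 5′ end of Apc and 373 bp from the nearest TSS of the neighbouring gene spg. The signal value was 121 in the pooled list, 32.9 in replicate 2 and 97.0 in replicate 3. Its ranks were 6223, 9153 and 5221, so in replicate 2 it lay below a list as long as the optimal one, and 90.9% of promoter-bound genes had a higher promoter signal.

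At the second TSS of Apc, at 28842283 inside the gene, the replicate lists and the pooled list differed. Replicate 2 listed a summit 119 bp downstream of it with a signal value of 65.8 (rank 4561), and replicate 3 one 116 bp downstream with 63.8 (rank 7666), but the pooled list had none within 500 bp. Such a pattern was uncommon: of the 7488 highest peaks of replicate 2, 7153 had their summit in a peak of replicate 3, and 64 of these (0.895%) overlapped no pooled peak. Why the pooled list lacks this peak was not tested. The highest flank summit of Apc lay 12715 bp upstream of the gene, inside spg and Inx3, with the TSS of Inx3 nearest (signal value 277). Its other flank summits included a pair at the promoter of WASp, which encodes an activator of actin branching, on the 3′ side of Apc (208 and 177).

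**Figure D2:**
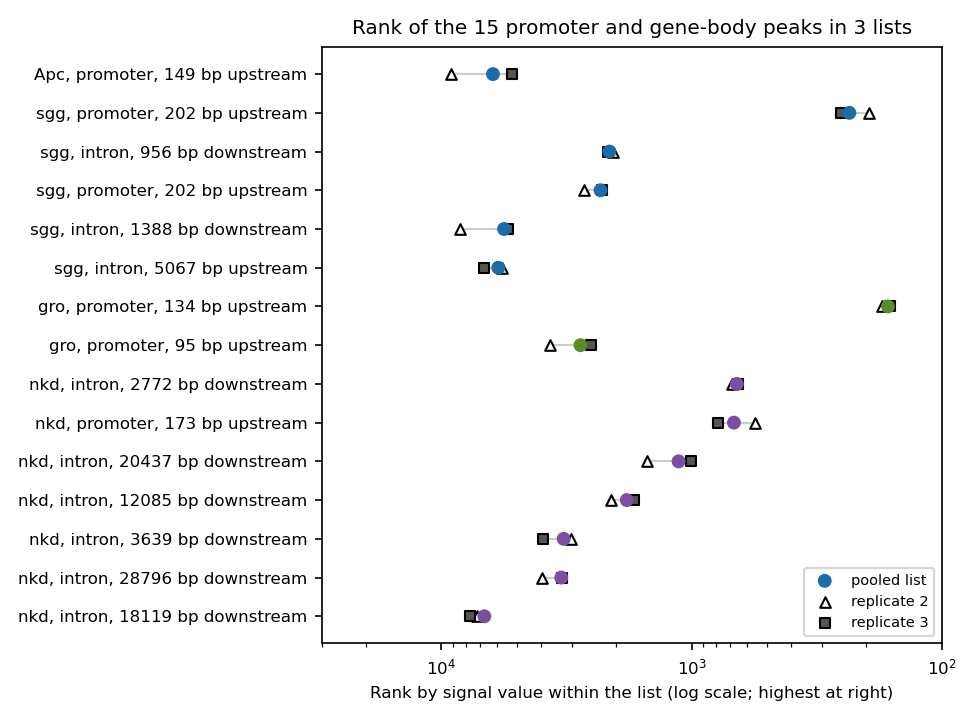
The rank of each of the 15 optimal peaks in promoters and bodies of sgg, gro, nkd and Apc is plotted on a log axis, highest at right, for the pooled list (coloured dots), replicate 2 (triangles) and replicate 3 (squares). Each row gives the gene and the distance to its nearest own TSS. The highest peaks of gro and sgg keep ranks between 161 and 252 in all 3 lists, and the Apc promoter has the lowest rank of all in replicate 2, 9153.

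All 15 promoter and body summits lay in peaks of both replicates, against 94.4% of the optimal list, which was itself made from these lists. The summits called in the replicates were close to the optimal ones, with a median shift of 9 bp in replicate 2 (at most 49 bp) and 6 bp in replicate 3 (at most 33 bp). Of the 15, 11 had a signal value above the optimal median of 204, and their median was 308. Peak widths ran from 121 to 506 bp, with an optimal median of 298 bp.

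The position of the summits was alike in the 4 genes. All 6 promoter summits lay upstream of the nearest TSS, at 95 to 202 bp, where 85.0% of the 2053 optimal summits within 500 bp of a protein-coding TSS also lay upstream, with a median of 156 bp upstream. All 12 body summits lay in introns of the gene, and among all 4646 optimal summits inside protein-coding genes 91.5% lay in no exon. These positions are therefore those of the list as a whole.

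**Figure D3:**
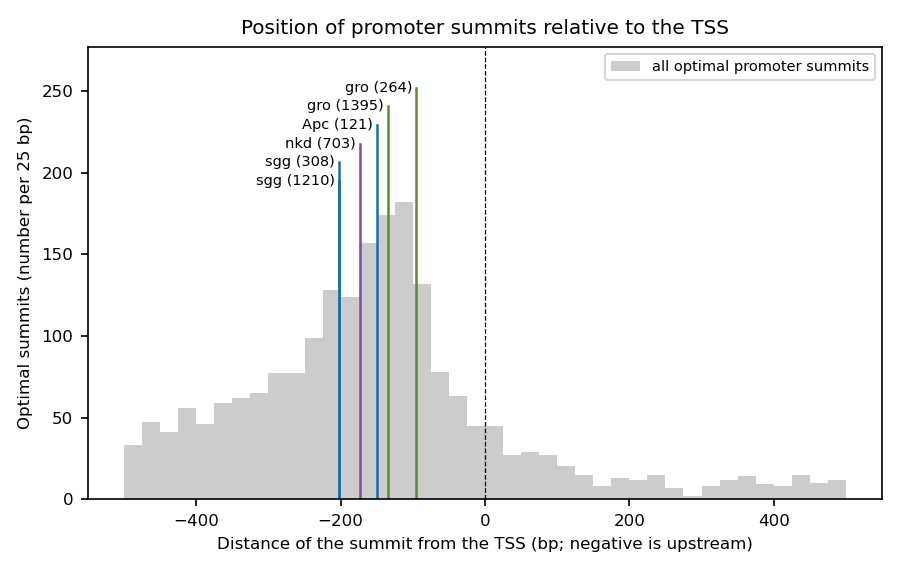
The histogram gives the distance of all 2053 optimal promoter summits from the nearest protein-coding TSS in bp (x axis, negative is upstream) as numbers per 25 bp (y axis), and coloured lines mark the 6 promoter summits of gro, sgg, nkd and Apc with their signal values in brackets. The height of a line has no meaning. All 6 lines fall between 95 and 202 bp upstream, within the main body of the histogram.

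Sequence words were not shared by all 4 genes. Within 50 bp of the 15 summits, ACAAT lay at 5 (3 genes), against 33.9% of all optimal summits, and AACAAT at 4, against 15.4%. The reversed word TAACA lay at 6 summits (of gro and nkd), against 29.9%. CTTTGA lay at 2 (both of gro), against 7.02%, ACAAAG at 1, against 7.60%, and TAATTA at 2, against 11.9%. Neither GCCGCC (1.10% of optimal summits) nor TATCGATA (0.588%) was at any of the 15. The Apc promoter summit, the nkd promoter summit and the highest sgg summit held none of the 8 words, as the sequences show. GC content in the 101 bp was 19.8 to 51.5% with a median of 29.7%, equal to the median of the optimal list.

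Armadillo carries the signal into the nucleus. Its gene (FBgn0000117, chrX:1891401-1900646, minus strand, 9.25 kb, 4 TSSs) had no summit within 20 kb in the optimal list, the pooled list or replicate 2. Replicate 3 listed 3 there, the highest with a signal value of 95.8 (rank 5281) at 11.0 kb from the 3′ end. Of the 2619 genes of similar length, 31.8% held an optimal body summit and 29.7% had no promoter or body summit in any list.

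Pangolin, the TCF protein, is encoded by a gene of 44.9 kb on chromosome 4 (FBgn0085432, chr4:69326-114270, plus strand, 4 TSSs). It was as long as sgg and nkd but had no summit in its body, at its TSSs or within 20 kb in the optimal list, the pooled list or replicate 2. Of the 796 genes of similar length, 71.2% held an optimal body summit and 4.52% had no promoter or body summit in any list. On chromosome 4, however, 68 of 80 protein-coding genes (85.0%) had none in any list, and the optimal list held 0.0451 peaks per 10 kb there. Replicate 3 alone listed 13 summits in the flank upstream of pan, 844 to 16465 bp from the gene, with signal values from 12.7 to 86.5 and ranks from 5816 to 28867. They made up 13 of its 41 peaks on chromosome 4, of which 30 overlapped no peak of replicate 2, against 33.2% of all peaks of replicate 3.

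**Figure D4:**
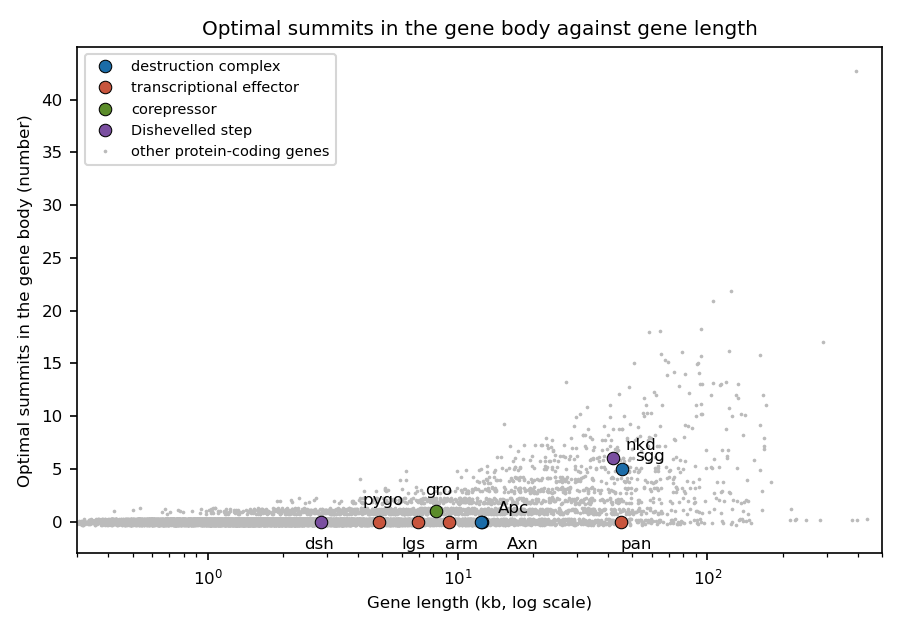
Gene length in kb (log scale, x axis) is plotted against the number of optimal summits in the gene body (y axis) for the 10 genes (large points, coloured by role) and the other protein-coding genes (grey, shifted slightly up or down at random for display). At like lengths, nkd and sgg hold 6 and 5 summits and pan holds 0.

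Legless links Armadillo to Pygopus. Its gene (FBgn0039907, chr4:436957-443911, minus strand, 6.96 kb) also lies on chromosome 4 and had no promoter or body summit, but the flank held a single strong peak in all 4 lists. Its summit at 424823, 12.1 kb beyond the 3′ end, had a signal value of 836 in the pooled list, 273 in replicate 2 and 564 in replicate 3, at ranks 491, 664 and 415. The nearest TSS was that of the long non-coding RNA gene lncRNA:CR43437, 1244 bp away, and the nearest protein-coding TSS was that of lgs, 19088 bp away. On chromosome 4, 15 of 80 protein-coding genes (18.8%) had an optimal summit within 20 kb.

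Pygopus is a nuclear protein with a PHD finger. Its gene (FBgn0043900, chr3R:31575835-31580699, minus strand, 4.87 kb) had the highest flank peak of the 10 genes. The summit, at 31588532 and 7833 bp upstream of the pygo TSS, lay 141 bp upstream of the TSS of CG1635. It had a signal value of 2760 pooled, 1018 in replicate 2 and 1755 in replicate 3, at ranks 22, 23 and 20. A summit on the other side, 8890 bp beyond the gene, had 213 pooled.

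Dishevelled passes the signal from the receptors to the destruction complex, and its gene is the shortest of the 10 (FBgn0000499, chrX:11355881-11358724, plus strand, 2.84 kb). Its strongest neighbour, 4342 bp upstream in the gene CG1737, had a signal value of 758 pooled (rank 590) and 483 in replicate 3 (rank 569), but its summit lay in no peak of replicate 2. The flank summit of sgg at the shared promoter of Seipin and Tsp3A likewise lay in no peak of replicate 2, with 434 pooled and 263 in replicate 3. Of the 1000 highest optimal peaks, 27 had their summit in no peak of replicate 2 and 0 in no peak of replicate 3. Another 2 optimal flank summits of dsh lay at the promoters of Kap3 and CG34348 (124 and 98.0), and the lowest value in the optimal list was 97.2.

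Axin is the central scaffold of the destruction complex. Its gene (FBgn0026597, chr3R:30022842-30035311, plus strand, 12.5 kb, 2 TSSs) is as long as Apc but had no promoter or body summit in any list, as 22.0% of the 2058 genes of similar length. The single optimal summit in reach lay 11002 bp beyond its 3′ end and 152 bp upstream of the TSS of RpL32, a ribosomal protein gene. A TSS of CG7943 also lay within 500 bp of it. This summit had a signal value of 411 pooled, 184 in replicate 2 and 228 in replicate 3. Replicate 3 listed 3 more, the highest 42 bp upstream of the TSS of Sry-delta (147) and the others on the 5′ side, 1574 and 1375 bp from Axn (82.3 and 15.8).

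Many of the flank summits sat at other genes, as many summits of the whole optimal list sat at genes. Of the 17 optimal flank summits of the 10 genes, 9 lay within 500 bp of another gene's TSS and 10 inside another gene, and 3 lay in neither. Of all 7488 optimal summits, 2053 lay within 500 bp of a protein-coding TSS and 4646 inside a protein-coding gene. The flank counts also include non-coding genes. Of the 17, 15 lay in peaks of both replicates, against 94.4% of the optimal list.

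Among 3 lists of other pathway genes, optimal promoter summits were less frequent at genes for secretion, ligands and receptors than at the rest. All 3 lists were chosen with earlier results of these data known. The longer replicate lists held promoter summits at further genes, most of them genes for secretion, ligands and receptors, so this contrast is one of the optimal list. Of 10 genes for turnover and kinases, 6 had an optimal promoter summit (60.0%): gish, which encodes a casein kinase 1 (signal value 2549), the second APC gene Apc2 (296), the casein kinase 1 gene dco (267), the PP2A catalytic subunit gene mts (227), and 2 more. Of 11 genes for nuclear cofactors, 5 had one (45.5%), among them brm, the ATPase of the Brahma remodelling complex (1548), pont, an AAA+ ATPase gene (1286), mor, a Brahma complex subunit (294), and the kinase gene Hipk (160).

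Of 18 genes for secretion, ligands and receptors, 2 had an optimal promoter summit (11.1%), the glypican gene dlp (329) and the ligand gene Wnt6 (194). An optimal summit in the body was found at 10 of the 18, against 14.3% of all genes. Body summits were found at 4 of the 10 genes for turnover and kinases and 4 of the 11 for nuclear cofactors. Longer genes more often hold a body summit, and no share among genes of similar length was taken for these lists. Together 13 of these 39 genes had an optimal promoter summit (33.3%), set against the 16.9% of all genes given above. The share was 30.1% for all genes with 2 or more TSSs and 12.2% for those with 1 TSS, and the 39 genes were not split by number of TSSs. Both APC genes thus had a promoter summit, that of Apc2 with 111 in replicate 2 and 192 in replicate 3. None of these differences between lists was tested.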

How the data were processed

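ChIP-seq peaks of Sox102F-GFP were analysed in 2 biological replicates of 1 group. The authors deposited narrowPeak lists on dm6. Per the deposited file lists, replicate peaks came from the alignments of 1 replicate and a control file, pooled peaks from both, and the optimal IDR list from these 3 lists. The sources used here name no caller or aligner. The deposited signal value was treated as a score, and the deposited −log10 q-value, constant at 4.18 in the optimal list, was not used. In the optimal list, 74 rows repeated an interval and 3 summits lay outside their interval; all were kept.

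Summits (peak start plus summit offset, counted from 1) were placed on Ensembl release 115 with Python 3.11.15, numpy 2.4.6 and pandas 2.3.3, and the placement was checked on simulated data. Promoter means within 500 bp of any TSS, and genes of similar length are those within 2-fold. The members and gene lists were chosen with earlier results of these data known. All members were named, and up to 4 promoter-bound genes of each other list by signal value. Other genes were named where their TSS was nearest to a summit inside a member or to the highest flank summit, or within 500 bp of a member's promoter summit. The genes at lower flank summits, and further genes within 500 bp of a flank summit, were chosen after the values were seen. Alternatives were other windows, TSS and overlap rules, a stricter and a longer list, and each replicate alone.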

Additional observations from a re-analysis of the deposited data

How the results depend on the processing

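The count of members with a promoter summit was 4 with windows of 250 and 1000 bp, with the gene of the nearest TSS only, with the whole pooled list and with each replicate alone. It was 3 with the 5′ end of the gene as the only TSS, which leaves out sgg, and 3 in the upper part of the optimal list above its median signal, which leaves out Apc. The count with a body summit was 3 to 4 under all alternatives run, and that within 20 kb was 6 with flanks of 10 kb, 8 above the median signal, 10 without replicate 2 and 8 without replicate 3. Without replicate 2 or 3, the 15 promoter and body summits were 14 and 17. They were 11 above the median signal and 15 with repeated intervals counted once. With a reciprocal overlap of 50%, 11 of 15 were found in both replicates, and with replicate summits within 100 bp all 15. With windows of 100 bp for words, TAATTA was at 5 summits in place of 2, GCCGCC at 1 in place of 0, and CTTTGA at 3 in place of 2, no longer at gro alone. Without replicate 3, the Apc promoter peak had rank 9153 in place of 6223, and Apc then counted through its second TSS. Depth is unknown, and each long list ends at 30000 peaks, so weaker sites could not be seen. No paired analysis was possible because the labels give 1 group.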
